A study of Drosophila melanogaster with 46 samples.

Results

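The comparison set the RNA response of eye discs to a Pc mutation beside the response to RNA interference (RNAi) against ph, gene by gene. Both genes encode subunits of Polycomb repressive complex 1 (PRC1). A gene was a member when its FlyBase identifier stood in both of the authors' deposited tables with a mean normalised count of at least 50 in each. That gave 7631 members of 11672 genes in both tables. An adjusted p was given in both tables for 7614 members, and these are the members tested. The lowest member was RyR, with mean counts of 2765 in the table for Pc and 50.3 in the table for ph. The highest gene left out was CG13043, with 262 and 49.9.

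The series studied PRC1 in Drosophila melanogaster by RNA-seq, ChIP-seq and Hi-C. The Pc mutant discs carried PcXT109 with FRT2A, a recombination site on chromosome arm 3L, which also holds Pc (chr3L:21306138-21318020, dm6). There were 2 such samples. The ph RNAi discs came from stock BL 64095 crossed to VDRC 50028, in 4 samples. The white RNAi control discs came from BL 64095 crossed to BL 33623, also in 4 samples. Every sample held about 150 eye discs of wandering larvae of the last instar, and polyadenylated RNA was sequenced with a stranded kit. The driver of the RNAi is known only by its stock number, the labels do not say what share of the disc cells was mutant, and which discs served as control in the table for Pc is not stated. The deposited tables hold 1 log2 fold change with its standard error (SE) per gene and no value per sample, so depth and replicate spread cannot be shown. Nothing in the labels says whether replicates came from separate cultures or animals, so p-values may measure technical spread alone.

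PRC1 represses developmental genes. Its Pc subunit reads the histone mark that PRC2 writes, its ph subunits help to compact bound chromatin, and Sce and Psc form the ubiquitin ligase at its centre. Its best-known targets are the Hox genes, which give body segments their identity and are mostly silent in the eye disc. Eye discs without ph are known to overgrow and to lose eye differentiation.

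The tissue label was checked first. All 13 listed markers of the eye and antennal epithelium were in both tables, with summed mean counts of 55258 in the table for Pc and 84222 in the table for ph. Of the 13, 12 were lower in the Pc mutant, and 12 were lower and 1 higher under ph RNAi, with medians of -0.86 and -2.40. Markers of other tissues and cell types stood at unequal levels in the 2 tables. After centring on the members, the median muscle marker stood 3.86 higher on the log2 scale in the table for Pc than in the table for ph, and the median fat body marker 3.00 higher. Summed mean counts of the 17 muscle markers were 194530 and 38250. Those of the 14 fat body markers were 38708 and 32902, of which FASN1 made up 11753 and 25576. The median marker also stood higher in the table for Pc by 1.87 for salivary gland and gut, 1.39 for germline, 1.29 for neurons and 0.88 for trachea. Mean counts average all libraries of a comparison, so a response to the mutation or to ph RNAi enters them too. Of the 13 neuron markers, 10 were lower and 0 higher under ph RNAi, and 2 were lower and 1 higher in the Pc mutant. The part of the responses in these level differences was not tested. In whole discs, fewer cells of a type and less RNA per cell cannot be told apart.

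The targeted genes were checked next. In the authors' deposited tables Pc had a log2 fold change of -1.64 ± 0.41 (SE) in the Pc mutant and -0.14 ± 0.07 under ph RNAi, with adjusted p = 0.00134 and 0.0453. Pc RNA was thus lower in both comparisons, and the fall was larger in the mutant (difference -1.50 ± 0.41, adjusted p = 0.000955). The neighbouring paralogs ph-p (chrX:2126210-2138371) and ph-d (chrX:2115727-2123286) can share reads. In the authors' deposited tables ph-p had -0.22 ± 0.14 in the Pc mutant, which missed the threshold, and -0.80 ± 0.04 under ph RNAi. For ph-d the values in the same deposited tables were -0.38 ± 0.10 and -0.66 ± 0.05, both past the threshold. The gene white (w), which the control RNAi targets, had -0.39 ± 0.31 in the Pc mutant and 0.79 ± 0.12 under ph RNAi in the authors' deposited tables.

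Other PRC1 subunits separated the comparisons to unequal extents. Su(z)2, a paralog of Psc, rose by 1.94 ± 0.23 in the Pc mutant and by 3.51 ± 0.09 under ph RNAi in the authors' deposited tables, and the 2 values differed (adjusted p = 1.2e-09). Psc itself had 0.20 ± 0.16 in the Pc mutant and 1.59 ± 0.07 under ph RNAi in those deposited tables (difference -1.39 ± 0.17, adjusted p = 8.23e-15). RYBP, a subunit of variant PRC1, had 0.09 ± 0.08 and -0.37 ± 0.05 in the authors' deposited tables. The ligase subunit Sce had 0.01 ± 0.10 and -0.06 ± 0.04, and Scm had 0.02 ± 0.10 and -0.05 ± 0.05, with no call in either deposited table. Over the 10 subunits tested, including Kdm2 (0.07 ± 0.12 and 0.21 ± 0.06) and l(3)73Ah (0.03 ± 0.08 and -0.28 ± 0.06), 1 was called higher and 2 lower in the Pc mutant, and 3 higher and 5 lower under ph RNAi.

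The ph RNAi response was far wider than the Pc mutant response. At the authors' adjusted p under 0.05, 844 tested members were called in the Pc mutant, 315 higher and 529 lower, beside 9.88% of all genes in that deposited table (3.64% higher and 6.24% lower). Under ph RNAi 6140 members were called, 3212 higher and 2928 lower, beside 66.0% of all genes in that deposited table (31.1% higher and 34.9% lower). The median absolute log2 fold change of members was 0.10 in the Pc mutant and 0.40 under ph RNAi, and the median SE was 0.115 and 0.063. Calls with an absolute log2 fold change of at least 1 numbered 196 in the Pc mutant and 1658 under ph RNAi. The larger SE and the 2 mutant samples limit the calls of the Pc mutant, so a gene called in the ph RNAi table alone is read below only with the test of the difference.

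The 2 fold changes of a gene were set against each other by a z test with SEs added in quadrature, which assumes that the tables share no library. A library shared between them would pull both fold changes of a gene the same way. The difference passed for 4462 members (58.6%), 2231 with the Pc value above the ph value and 2231 below, beside 45.1% of all genes in both tables (24.8% above and 20.4% below). Of the 844 members called in the Pc mutant, 756 were also called under ph RNAi, which is 89.6% of the Pc calls and 12.3% of the ph calls. Over all tested members the shares called were 80.6% under ph RNAi and 11.1% in the Pc mutant, so the overlap lay little above them. Of these 756, 594 (78.6%) changed the same way and 162 (21.4%) in opposite ways.

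Falls were shared more often than rises. Of the 529 members lower in the Pc mutant, 432 (81.7%) were also lower under ph RNAi and 41 (7.75%) were higher. Of the 315 members higher in the Pc mutant, 162 (51.4%) were also higher under ph RNAi, while 121 (38.4%) were lower. Over all tested members the shares called under ph RNAi were 42.2% higher and 38.5% lower, so the split of the Pc rises lay near that of all members in the lower direction. Among all genes in both tables the shares were 1.61% shared higher, 4.64% shared lower, 1.36% higher in Pc with lower in ph, and 0.463% the reverse. Large changes showed the same split: of 76 members with a rise of at least 1 in the Pc mutant, 41 rose and 31 fell under ph RNAi, and of 120 with such a fall, 5 rose and 99 fell. Centring both tables on the ribosomal protein genes moved the median of members to -0.06 in the Pc mutant and -0.36 under ph RNAi. The split of calls then became 213 higher and 772 lower in the Pc mutant, and 1299 higher and 5034 lower under ph RNAi. Directions of ph values smaller than about that shift therefore depend on the scaling.

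**Figure D1:**
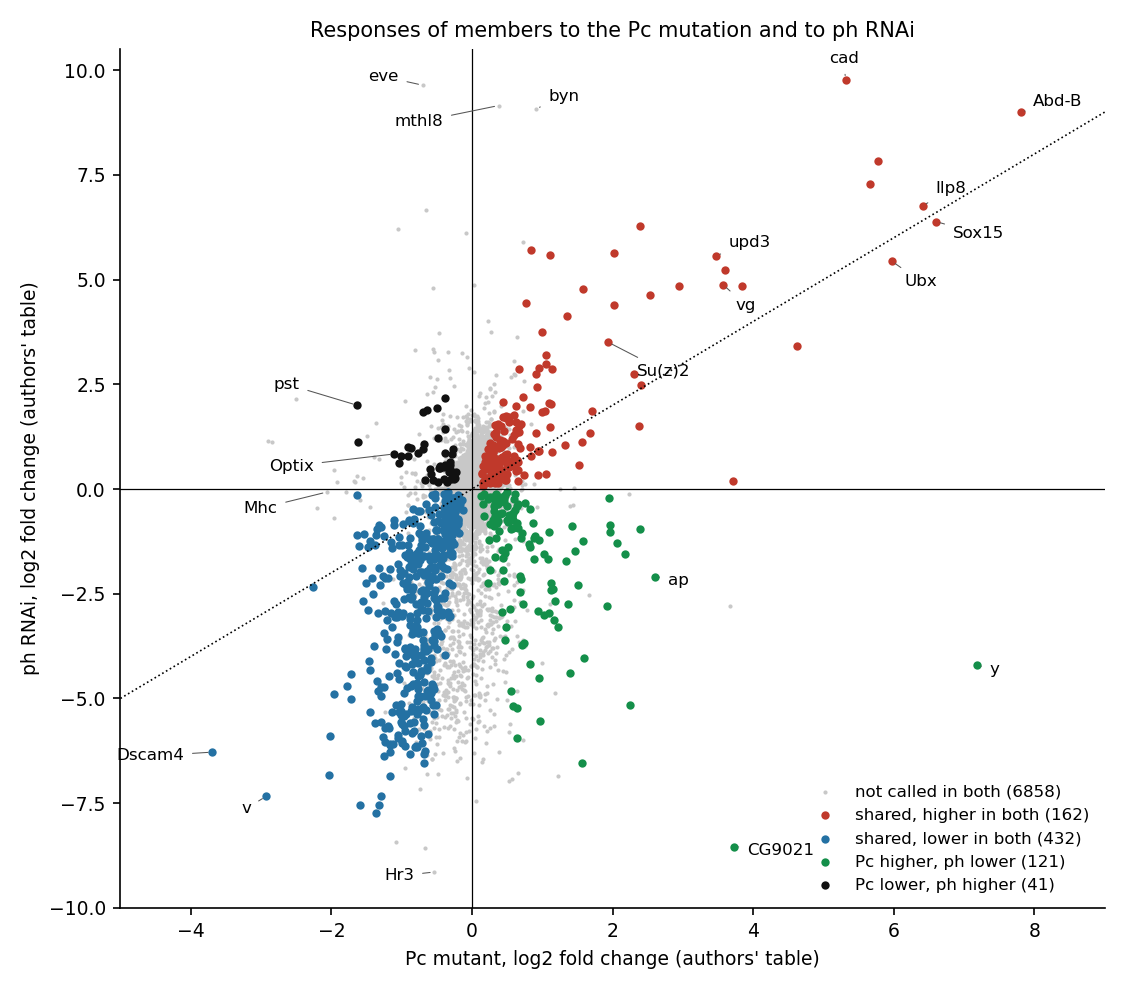
Log2 fold change in the Pc mutant (x axis) against log2 fold change under ph RNAi (y axis) for the 7614 tested members, from the authors' deposited tables; 1 point is 1 gene, colours mark members called in both tables and the dotted line marks equal values. The 432 members lower in both spread far below the dotted line, and the 121 members higher in Pc and lower in ph fill the lower right.

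Shared falls were larger under ph RNAi. The median log2 fold change of the 432 shared lower members was -0.71 in the Pc mutant and -2.34 under ph RNAi, and that of the 162 shared higher members was 0.50 and 0.97. Of the 594 shared members, the difference passed for 440: the ph value was larger in size for 424 and the Pc value for 16. For the other 154 the difference missed the threshold.

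Most Hox genes rose in both comparisons. Of 8 Hox genes tested, 6 rose in both comparisons, with a list median of 3.07 in the Pc mutant and 4.92 under ph RNAi, against 0.02 and 0.03 for all members. Abd-B, the most posterior Hox gene, rose by 7.80 ± 0.38 in the Pc mutant and by 8.99 ± 0.16 under ph RNAi in the authors' deposited tables. The thoracic and abdominal gene Ubx rose by 5.97 ± 0.43 and 5.44 ± 0.20 in the same deposited tables (difference 0.53 ± 0.47, adjusted p = 0.391). The abdominal gene abd-A rose by 5.78 ± 0.53 and 7.82 ± 0.69, and the thoracic gene Antp by 3.60 ± 0.47 and 5.22 ± 0.94, in the authors' deposited tables.

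The head Hox genes did not move as one. In the authors' deposited tables Scr rose by 2.40 ± 0.40 in the Pc mutant and by 2.49 ± 0.44 under ph RNAi. The mouthpart gene pb rose by 2.53 ± 0.40 and 4.62 ± 0.22 there, and its values differed (adjusted p = 2.78e-05). Dfd had -0.27 ± 0.15 without a call in the Pc mutant and -0.24 ± 0.06 with a call under ph RNAi in the authors' deposited tables. The most anterior gene, lab, had -0.48 ± 0.30 in the Pc mutant (adjusted p = 0.422) and fell by 3.47 under ph RNAi in the deposited tables, with SE 0.16 (difference 2.99 ± 0.34, adjusted p = 2.95e-17). All 8 genes lay on 3R and had merged peaks of both PSC and Su(z)12.

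Several signals of tissue damage and growth rose in both. Ilp8, an insulin-like peptide that disturbed discs secrete to delay metamorphosis, rose by 6.41 ± 0.55 in the Pc mutant and by 6.76 ± 1.00 under ph RNAi in the authors' deposited tables (difference -0.35 ± 1.14, adjusted p = 0.845). The 3 cytokines of the JAK/STAT pathway rose in both. In the authors' deposited tables upd3 had 3.47 ± 0.43 and 5.57 ± 0.51, and upd2 had 2.94 ± 0.51 and 4.85 ± 0.65, each higher under ph RNAi (adjusted p = 0.00459 and 0.0448). For upd1 the order was the other way, with 2.38 ± 0.25 in the Pc mutant and 1.51 ± 0.27 under ph RNAi in the deposited tables (adjusted p = 0.0423). The transcription factor chinmo, a pathway target, rose by 1.05 ± 0.19 and 2.99 ± 0.09 in the authors' deposited tables.

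Within the pathway, the transducer Stat92E passed only the ph test, with 0.08 ± 0.09 in the Pc mutant and 0.67 ± 0.02 under ph RNAi in the deposited tables (difference -0.59 ± 0.09, adjusted p = 2.06e-09). The SOCS family gene Socs16D and the pathway inhibitor et fell under ph RNAi alone, by 0.43 and 2.51 in the authors' deposited table, with values of 0.09 ± 0.12 and 0.37 ± 0.66 in the table for Pc. Of 12 JAK/STAT genes, 5 were shared higher and none was opposite, and under ph RNAi 8 were higher and 3 lower. Of 15 genes of JNK signalling and wound response, 4 were shared higher and 1 shared lower. Under ph RNAi 7 of the 15 were higher and 7 lower, and list medians were 0.13 in the Pc mutant and 0.12 under ph RNAi. The matrix protease Mmp1 rose by 1.68 ± 0.16 in the Pc mutant and by 1.34 ± 0.27 under ph RNAi in the authors' deposited tables, and the transcription factor Ets21C by 2.02 ± 0.50 and 4.39 ± 0.72. The JNK phosphatase puc had 0.23 ± 0.17 without a call and 1.24 ± 0.12 with one in those deposited tables, and these values differed (adjusted p = 5.53e-06). The TNF ligand egr fell in both, with -0.89 ± 0.20 and -2.57 ± 0.19 in the authors' deposited tables.

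Selectors of other tissues moved both ways. Of 12 wing selectors, 3 were shared higher, 2 shared lower and 2 opposite, with 5 higher and 2 lower in the Pc mutant and 7 higher and 5 lower under ph RNAi. Of 11 gap, terminal and hindgut factors, 2 were shared higher, 1 shared lower and 3 opposite, with 4 higher and 2 lower in the Pc mutant and 5 higher and 5 lower under ph RNAi. All tested members also moved both ways under ph RNAi, with 42.2% higher and 38.5% lower. Under the ribosomal centring the ph calls of each of these 2 lists turned to 4 higher and 7 lower. The wing gene vg rose by 3.58 ± 0.37 in the Pc mutant and by 4.87 ± 0.10 under ph RNAi in the authors' deposited tables, and the wing POU factor nub by 2.31 ± 0.33 and 2.74 ± 0.21. The posterior gut factor cad rose by 5.31 ± 0.83 and 9.77 ± 0.41 in those deposited tables (adjusted p of the difference 6.54e-06). Sox15, of the Sox family, rose in both by values that differed by 0.21 ± 0.64 (adjusted p = 0.83), with 6.39 ± 0.40 under ph RNAi in the authors' deposited table. The tracheal regulator trh rose by 1.58 ± 0.36 and 4.77 ± 0.21 there, while the tracheal receptor btl had 0.52 ± 0.20 without a call in the Pc mutant and -2.43 ± 0.22 with a call under ph RNAi in the same deposited tables. CG15269, named only by its identifier, rose by 5.66 ± 0.97 and 7.29 ± 0.35 in the deposited tables.

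**Figure D2:**
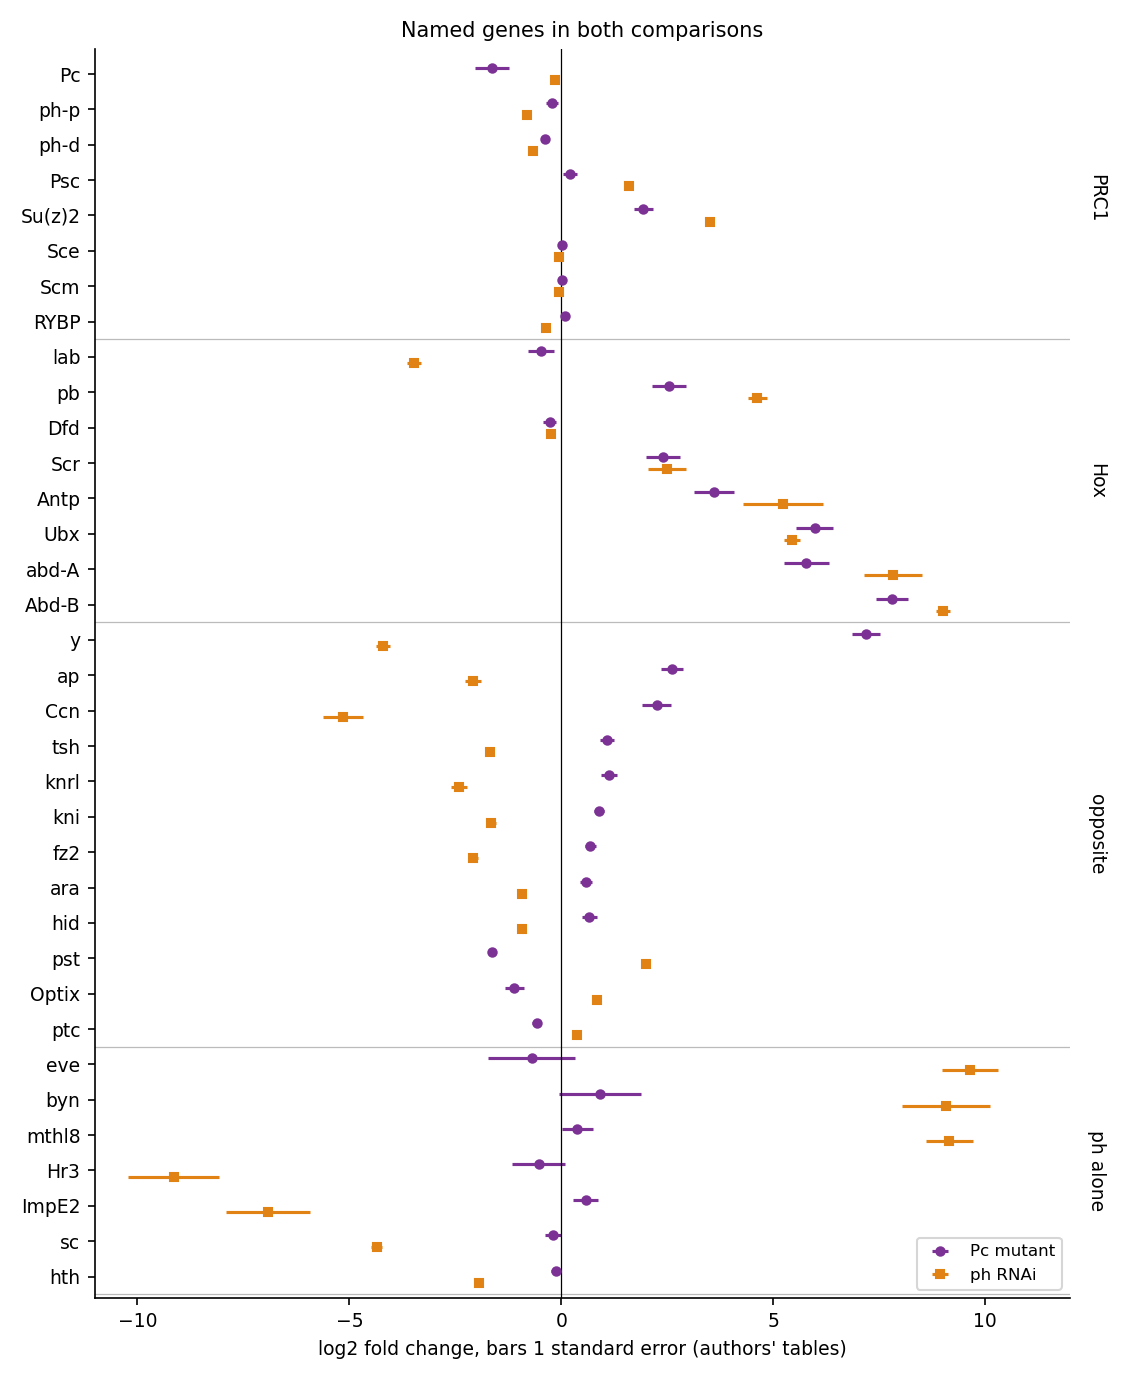
Log2 fold changes of PRC1 subunits, Hox genes, opposite genes and genes that passed in ph RNAi alone; circles are the Pc mutant, squares are ph RNAi, bars are 1 SE, all from the authors' deposited tables. The Hox genes from Scr to Abd-B lie right of 0 in both, the opposite genes lie on both sides, and eve reaches 9.64 under ph RNAi beside -0.70 in the Pc mutant.

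Genes of the eye programme fell in both comparisons, as did 11 of the 13 markers of the eye and antennal epithelium. That marker list shares genes with the lists below, among them toy, so and ato, so it is no separate comparison. Of 12 retinal determination genes, 7 fell in both comparisons, 2 were opposite and 1 was called in neither, with list medians of -0.78 in the Pc mutant and -2.26 under ph RNAi. The Pax6 gene toy had -1.07 ± 0.21 and -3.05 ± 0.20 in the authors' deposited tables. The homeobox factor so had -0.70 ± 0.17 and -3.60 ± 0.24 there (difference 2.90 ± 0.29, adjusted p = 6.83e-22). The paired nuclear factors dan and danr had -1.42 ± 0.28 and -1.34 ± 0.28 in the Pc mutant, and -2.13 ± 0.09 and -4.81 ± 0.47 under ph RNAi, in the authors' deposited tables.

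Photoreceptor and cone cell genes went further. All 21 tested were called lower under ph RNAi and 14 of them were also called lower in the Pc mutant, with list medians of -0.80 in the Pc mutant and -4.17 under ph RNAi. The proneural gene ato, which starts the first photoreceptor, had -1.35 ± 0.29 and -4.58 ± 0.54 in the authors' deposited tables. The receptor kinase sev had -1.38 ± 0.24 and -5.58 ± 0.32, and the homeobox gene ro -1.29 ± 0.37 and -4.94 ± 0.37, in those deposited tables. The photoreceptor adhesion protein chp passed only under ph RNAi, with -0.03 ± 0.10 in the Pc mutant and -3.48 ± 0.12 under ph RNAi in the authors' deposited tables (adjusted p of the difference 3.51e-103). The Pax gene sv did the same, with -0.33 ± 0.17 and -3.18 ± 0.11 in the deposited tables. The difference passed for 20 of the 21 genes, always with the Pc value above the ph value.

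Notch targets fell with them. In the E(spl) complex, whose proteins repress proneural genes, 7 of 10 genes fell in both, with medians of -0.65 in the Pc mutant and -3.35 under ph RNAi. E(spl)m5-HLH had -1.45 ± 0.31 and -5.32 ± 0.42 in the authors' deposited tables. The pathway core moved less: of 17 genes, 3 fell and 1 rose in both, where the ligand Dl had -0.43 ± 0.09 and -1.31 ± 0.04 and the ligand Ser had 0.60 ± 0.16 and 0.55 ± 0.04 in the deposited tables. Of 18 EGFR pathway genes 7 fell and 1 rose in both. The protease ru, which releases EGFR ligands, had -1.32 ± 0.36 and -7.55 ± 0.83 in the authors' deposited tables, while the receptor Egfr had -0.06 ± 0.10 and -1.70 ± 0.06 (adjusted p of the difference 1.71e-47). The ligand vn rose by 0.63 ± 0.16 and 1.35 ± 0.09 in those deposited tables. Of 8 proneural, neuroblast and Snail genes, 4 fell and 1 rose in both. The bristle gene sc had -0.20 ± 0.19 in the Pc mutant and -4.36 ± 0.13 under ph RNAi in the deposited tables (adjusted p of the difference 7.12e-69).

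Outside these lists the strongest shared falls included Dscam4, an adhesion protein of the immunoglobulin family, with -3.70 ± 0.27 in the Pc mutant and -6.28 ± 0.58 under ph RNAi in the authors' deposited tables. The eye pigment gene v had -2.93 ± 0.83 and -7.34 ± 0.61 there. For tut, which encodes an RNA-binding protein, the values -2.27 ± 0.23 and -2.34 ± 0.17 in the deposited tables differed by 0.07 ± 0.28 (adjusted p = 0.869). CG15765, TrpA1 and CG17386 fell in both as well, with ph values below the Pc values.

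**Figure D3:**
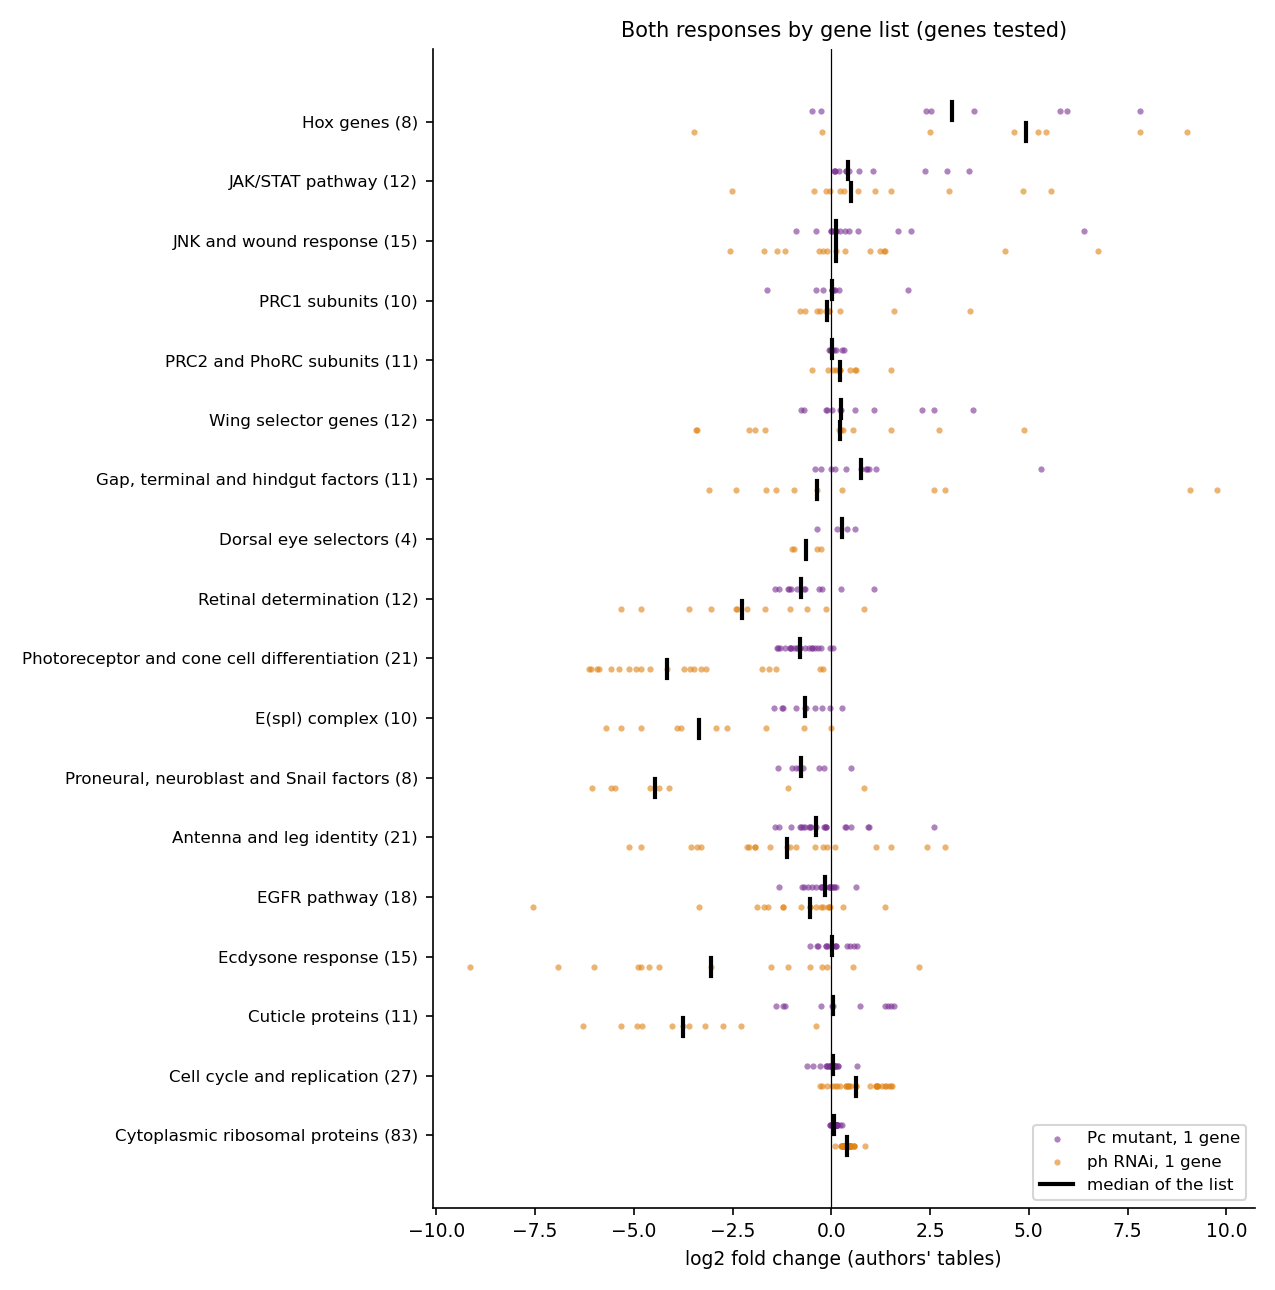
Log2 fold changes of the tested genes of 18 lists, from the authors' deposited tables; for each list the Pc mutant is the upper row and ph RNAi the lower row, 1 point is 1 gene and the black tick is the list median. Photoreceptor genes have medians of -0.80 in the Pc mutant and -4.17 under ph RNAi, while ecdysone response genes have 0.03 and -3.05.

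Opposite changes were led by rises in the Pc mutant. Of the 162 opposite members, 121 were higher in Pc and lower in ph, with medians of 0.60 and -1.13, and 41 were lower in Pc and higher in ph, with medians of -0.47 and 0.61. The largest by the smaller of the 2 changes was y (chrX:356509-361245), a pigmentation gene whose mutant alleles are common markers of laboratory stocks. It rose by 7.18 ± 0.33 in the Pc mutant and fell to -4.21 ± 0.16 under ph RNAi in the authors' deposited tables. The labels do not give the y alleles of any line, nor those of v, sc and sev named above. The part of such alleles in the values of these genes was not tested.

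Several opposite genes pattern discs. The LIM homeobox gene ap (chr2R:5706202-5727525), which selects dorsal wing identity, rose by 2.61 ± 0.26 in the Pc mutant and had -2.09 ± 0.18 under ph RNAi in the authors' deposited tables (adjusted p of the difference 1.1e-46). The trunk and proximal eye factor tsh had 1.09 ± 0.17 and -1.68 ± 0.10 there. The paired zinc finger genes kni and knrl, neighbours on 3L, had 0.88 ± 0.12 and 1.13 ± 0.18 in the Pc mutant, and -1.66 ± 0.12 and -2.42 ± 0.19 under ph RNAi, in the deposited tables. The Iroquois gene ara, a dorsal eye selector, had 0.59 ± 0.15 and -0.94 ± 0.07 in the authors' deposited tables. Its neighbours caup and mirr had 0.41 ± 0.15 and 0.14 ± 0.14 in the Pc mutant without a call, and -0.35 ± 0.04 and -0.27 ± 0.07 under ph RNAi with one, in those deposited tables.

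Receptors and death genes were among them too. The Wnt receptor fz2 had 0.68 ± 0.12 in the Pc mutant and -2.09 ± 0.11 under ph RNAi in the authors' deposited tables, and the Dpp receptor tkv had 0.37 ± 0.11 and -0.75 ± 0.05. The pro-apoptotic gene hid had 0.66 ± 0.18 and -0.94 ± 0.06 there, whereas its partner rpr rose in both, by 0.83 ± 0.14 and 1.97 ± 0.10, in the deposited tables. The homeobox gene Dr had 1.96 ± 0.36 and -1.03 ± 0.16 in the authors' deposited tables. Under the centring on ribosomal protein genes tkv lost its call in the Pc mutant (adjusted p = 0.0562).

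Cuticle protein genes fell under ph RNAi and were mixed in the Pc mutant. Of 11 cuticle protein genes, 10 fell under ph RNAi. In the Pc mutant 3 rose and 2 fell, so 3 were opposite and 2 shared lower, with list medians of 0.03 in the Pc mutant and -3.74 under ph RNAi. Cpr65Ec had 1.59 ± 0.45 and -4.03 ± 0.36 in the authors' deposited tables. Among the leading opposite genes outside that list, the secreted matrix protein gene Ccn had 2.25 ± 0.34 and -5.15 ± 0.46, and the octopamine receptor gene Octbeta3R 1.92 ± 0.27 and -2.79 ± 0.69, in those deposited tables. CG9021 and CG13064 had 3.73 ± 0.72 and 1.57 ± 0.37 in the Pc mutant, and -8.54 ± 1.72 and -6.55 ± 0.62 under ph RNAi, in the authors' deposited tables.

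The reverse pattern was rarer and smaller. Its leading gene was pst (chr3L:7357275-7360263), known for its part in resistance to a fly virus, with -1.64 ± 0.08 in the Pc mutant and 2.00 ± 0.04 under ph RNAi in the authors' deposited tables. The retinal homeobox factor Optix had -1.11 ± 0.23 and 0.84 ± 0.07 in those tables (difference -1.95 ± 0.24, adjusted p = 2.32e-15), while 10 of the 12 retinal genes were lower under ph RNAi. The Hedgehog receptor ptc had -0.59 ± 0.10 and 0.37 ± 0.05 in the deposited tables, and its ph value turned to -0.02 without a call after centring on ribosomal protein genes. CG43295, CG10337, CG14964 and the P450 gene Cyp310a1 completed the leading genes, with Pc values between -1.61 and -0.86 and ph values between 0.80 and 1.11 in the authors' deposited tables. CG14964 also lost its ph call under that centring (adjusted p = 0.159).

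Members that responded to ph RNAi alone numbered 3766, 2041 higher and 1725 lower, counting those whose difference passed. Another 1618 were called under ph RNAi without a passed difference. The pair-rule gene eve had -0.70 ± 1.02 in the Pc mutant and 9.64 ± 0.66 under ph RNAi in the authors' deposited tables. The hindgut T-box gene byn had 0.91 ± 0.97 and 9.07 ± 1.04 there, and the receptor gene mthl8 0.38 ± 0.37 and 9.16 ± 0.55. The Wnt ligand wg had -0.08 ± 0.11 and 1.62 ± 0.04 in the deposited tables. The germline gene mael had 0.02 ± 0.18 and 4.86 ± 0.12 in the authors' deposited tables, and the fatty acid synthase FASN1 -0.34 ± 0.13 and 3.28 ± 0.08.

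Ecdysone response genes separated the 2 comparisons. None of 15 was called in the Pc mutant, where 11.1% of all tested members were called. Under ph RNAi 12 fell and 2 rose, and the difference passed for 13, 11 with the Pc value above. List medians were 0.03 in the Pc mutant and -3.05 under ph RNAi. The hormone-induced nuclear receptor Hr3 had -0.54 ± 0.62 and -9.14 ± 1.07 in the authors' deposited tables. ImpE2, induced by ecdysone in discs, had 0.57 ± 0.29 and -6.92 ± 1.00 there, and Eip75B, an early response receptor, 0.03 ± 0.16 and -1.54 ± 0.06. The 5 Osiris genes tested stood at unequal levels: Osi6 had a mean count of 46995 in the table for Pc and 198 in the table for ph. Its log2 fold changes in the deposited tables were 0.11 ± 0.22 in the Pc mutant and -4.97 ± 1.45 under ph RNAi.

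Antenna and leg genes also fell mostly under ph RNAi, where 15 of 21 were lower and 4 higher. Of the 21, 8 were shared lower, 2 shared higher, 1 opposite and 8 changed under ph RNAi alone. The homeobox gene hth had -0.14 ± 0.11 in the Pc mutant and -1.94 ± 0.09 under ph RNAi in the authors' deposited tables, and al had 0.33 ± 0.14 and -3.56 ± 0.25. T-box factors were split, with 4 of 7 higher and 3 lower under ph RNAi and none called in the Pc mutant. All tested members were also split, with 42.2% higher and 38.5% lower under ph RNAi, and 11.1% were called in the Pc mutant. These 7 genes thus hardly set the list apart. Under the ribosomal centring 3 were higher and 4 lower under ph RNAi, and 3 were lower in the Pc mutant. Doc1 and bi were among the higher, with -0.37 ± 0.15 and -0.13 ± 0.17 in the Pc mutant, and 0.78 ± 0.07 and 0.95 ± 0.05 under ph RNAi, in the authors' deposited tables. The paired T-box genes mid and H15 had 0.16 ± 0.11 and -0.04 ± 0.22 in the Pc mutant, and -2.06 ± 0.12 and -3.66 ± 0.15 under ph RNAi, in the deposited tables. Axon guidance genes followed: 15 of 16 fell under ph RNAi and 3 fell in both, and the netrin receptor unc-5 had -0.12 ± 0.06 and -3.15 ± 0.12 in the authors' deposited tables.

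Growth genes rose modestly under ph RNAi. Of 27 cell cycle and replication genes, 22 rose and 3 fell under ph RNAi, and 2 rose and 2 fell in the Pc mutant. The replicative helicase genes dpa and Mcm6 had 0.05 ± 0.11 and 0.05 ± 0.10 in the Pc mutant, and 1.37 ± 0.03 and 1.30 ± 0.03 under ph RNAi, in the authors' deposited tables. Mcm5 rose in both, by 0.66 ± 0.11 and 1.51 ± 0.04, in those deposited tables. All 83 cytoplasmic ribosomal protein genes were called higher under ph RNAi with a median of 0.39, and 1 was called higher in the Pc mutant, where the median was 0.08. For mitochondrial ribosomal proteins 71 of 72 rose under ph RNAi (median 0.50) and 1 rose in the Pc mutant (median 0.04). After centring on the cytoplasmic ribosomal proteins, 15 cell cycle genes were called higher and 7 lower under ph RNAi, and 28 mitochondrial ribosomal proteins higher and 2 lower.

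Of 11 PRC2 and PhoRC subunits, 7 rose and 1 fell under ph RNAi, and none was called in the Pc mutant. The PRC2 subunit esc had 0.26 ± 0.10 in the Pc mutant and 1.52 ± 0.06 under ph RNAi in the authors' deposited tables, and Su(z)12 had 0.07 ± 0.09 and 0.63 ± 0.04. Trithorax group genes, which oppose Polycomb, had 11 of 22 higher and 3 lower under ph RNAi and no call in the Pc mutant. The share higher in the trithorax group lay near the 42.2% of all members. The Pc mutant called 11.1% of all tested members, so the lack of calls in 11 and 22 genes sets these lists little apart. Under the ribosomal centring the ph calls of these lists turned to 3 higher and 7 lower, and to 1 higher and 16 lower.

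The Pc mutant alone changed 63 members, 22 higher and 41 lower, and another 25 were called there without a passed difference. The lower ones were led by fat body and muscle genes. The storage protein gene Lsp1beta had -2.51 ± 0.76 in the Pc mutant and 2.16 ± 1.23 under ph RNAi in the authors' deposited tables. Lsp1alpha and Lsp1gamma had -2.90 ± 0.93 and -2.85 ± 0.78 in the Pc mutant and missed the threshold under ph RNAi, with 1.15 ± 1.25 and 1.13 ± 0.80. The lipoprotein gene apolpp had -1.96 ± 0.51 and 0.44 ± 0.54 there, and the muscle myosin gene Mhc -2.06 ± 0.49 and -0.07 ± 0.49, in the deposited tables. Mhc had a mean count of 37754 in the table for Pc and 500.2 in the table for ph. Over the muscle markers, 14 of 17 were lower in the Pc mutant and none higher, and 8 were lower and 1 higher under ph RNAi. Over the fat body markers, 7 of 14 were lower in the Pc mutant, and 2 were lower and 2 higher under ph RNAi. The part of these tissues in the Pc mutant calls was not tested.

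Rises in the Pc mutant alone were few. The receptor gene CCKLR-17D3 had 2.24 ± 0.26 in the Pc mutant and -0.11 ± 0.21 under ph RNAi in the authors' deposited tables, and the condensin gene Cap-H2 0.72 ± 0.14 and 0.00 ± 0.05. CG7328, CG5618 and l(3)72Dp, all on 3L, had 1.39 ± 0.27, 1.46 ± 0.31 and 0.88 ± 0.15 in the Pc mutant, and -0.41 ± 0.25, 0.03 ± 0.31 and 0.12 ± 0.09 under ph RNAi, in the deposited tables. The factor zfh2 had 0.70 ± 0.25 and -0.03 ± 0.05 in the authors' deposited tables. Another gene on 3L, CG4098, chosen after its values were seen, was called in both: it rose by 3.71 ± 0.18 in the Pc mutant and by 0.19 ± 0.09 under ph RNAi in those deposited tables. Under the ribosomal centring CCKLR-17D3, CG7328, Cap-H2 and l(3)72Dp were called lower under ph RNAi, and zfh2 lost its Pc call (adjusted p = 0.0878).

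Haemocyte and neuron markers went with ph RNAi instead. All 14 haemocyte markers among tested members fell under ph RNAi, with a median of -2.72, and 2 fell in the Pc mutant, with a median of -0.10. The phagocytic receptor gene NimC1 had 0.29 ± 0.47 in the Pc mutant and -3.02 ± 0.58 under ph RNAi in the authors' deposited tables. All 8 neuron markers among tested members fell under ph RNAi, with a median of -4.52, and in the Pc mutant 2 fell and 1 rose. The synaptic gene nSyb had -0.32 ± 0.19 and -5.15 ± 0.59 in the deposited tables. Of 7 trachea markers 5 fell and 2 rose under ph RNAi, of 8 glia markers 5 fell and 3 rose, and of 7 germline markers 1 fell and 3 rose. The 1 tested salivary gland marker, Sgs8, had 3.67 without a call in the Pc mutant and -2.80 with a call under ph RNAi in the authors' deposited tables.

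Chromosome arm 3L, where Pc and FRT2A lie, was set apart from the other arms. Of 1499 tested members on 3L, 231 (15.4%) were called in the Pc mutant, against 612 of 6111 (10.0%) on the other arms. The other 5 arms ranged from 9.44% on 2L to 10.9% on 3R. Under ph RNAi the shares were 78.8% on 3L and 81.1% on the other arms, so the excess on 3L stood in the Pc mutant table and not in the ph RNAi table. Both directions took part: 6.07% of 3L members were higher in the Pc mutant and 9.34% lower, against 3.65% and 6.37% on the other arms. Within 3L the Pc calls made up 22.1% of the 357 members in the first 5 Mb and 8.84% of the 215 members between 20 and 25 Mb, the stretch that holds Pc. The stretches of 5 Mb between them had 14.6%, 12.2% and 16.4% in order, so the share did not fall steadily. Past 25 Mb 0 of 12 members were called. Genes are not replicates, so no test was made. The Pc mutation and other differences between the 3L arms of the compared lines cannot be told apart.

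Opposite responses were also more frequent on 3L. Of 197 members called in both tables on 3L, 57 (28.9%) were opposite, against 18.8% of 558 on the other arms. Of 91 members higher in the Pc mutant on 3L, 37 were higher and 39 lower under ph RNAi, and on the other arms 124 were higher and 82 lower of 223. On 3L these were 40.7% and 42.9% of the rises, near the 39.2% higher and 39.6% lower of all 3L members under ph RNAi. On the other arms they were 55.6% and 36.8%, beside 42.9% and 38.2% of all members there. Of 140 lower members on 3L, 103 were lower and 18 higher under ph RNAi, and on the other arms 329 were lower and 23 higher of 389. The Pc mutant alone changed 10 members higher and 9 lower on 3L, and 12 higher and 32 lower on the other arms. Members on 3L that were called in the Pc mutant without a passed difference numbered 15, against 10 on the other arms.

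Opposite genes of the lists lay on 3L and on other arms. Among them kni, knrl, ara, fz2, hid and D lay on 3L, where D is a Sox gene with 0.45 ± 0.13 in the Pc mutant and -0.20 ± 0.08 under ph RNAi in the authors' deposited tables. On the other arms the lists that hold these 3L genes had 3 opposite genes, drm, ptc and tkv. These lists were taken for their opposite genes on 3L, so the numbers on and off 3L cannot be set against each other. The opposite genes ap, tsh, Optix and Dr, also on other arms, came from the wing, antenna and leg, retinal and NK homeobox lists, which had no opposite gene on 3L. Further opposite genes of the lists on other arms were y, E2f2, Pcp, Cyp18a1, Cyp310a1, cac, bnb, Lpin and spn-E, and on 3L Cpr65Ec and Cpr78E. Shared rises on 3L were led by Ilp8, by tey, with 3.85 ± 0.55 and 4.85 ± 0.33, and by HGTX, with 2.02 ± 0.47 and 5.62 ± 0.69, in the deposited tables. All 7 ecdysone response genes tested on 3L lacked a call in the Pc mutant, as did the 8 on other arms, with ph medians of -3.05 and -2.96. The Pc mutant called 15.4% of all tested members on 3L and 10.0% on the other arms, so lists this short without a call lie near those shares. Chromosome 4 stood apart under ph RNAi: of 69 members 8 were higher and 55 lower, and in the Pc mutant 1 was higher and 6 lower.

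**Figure D4:**
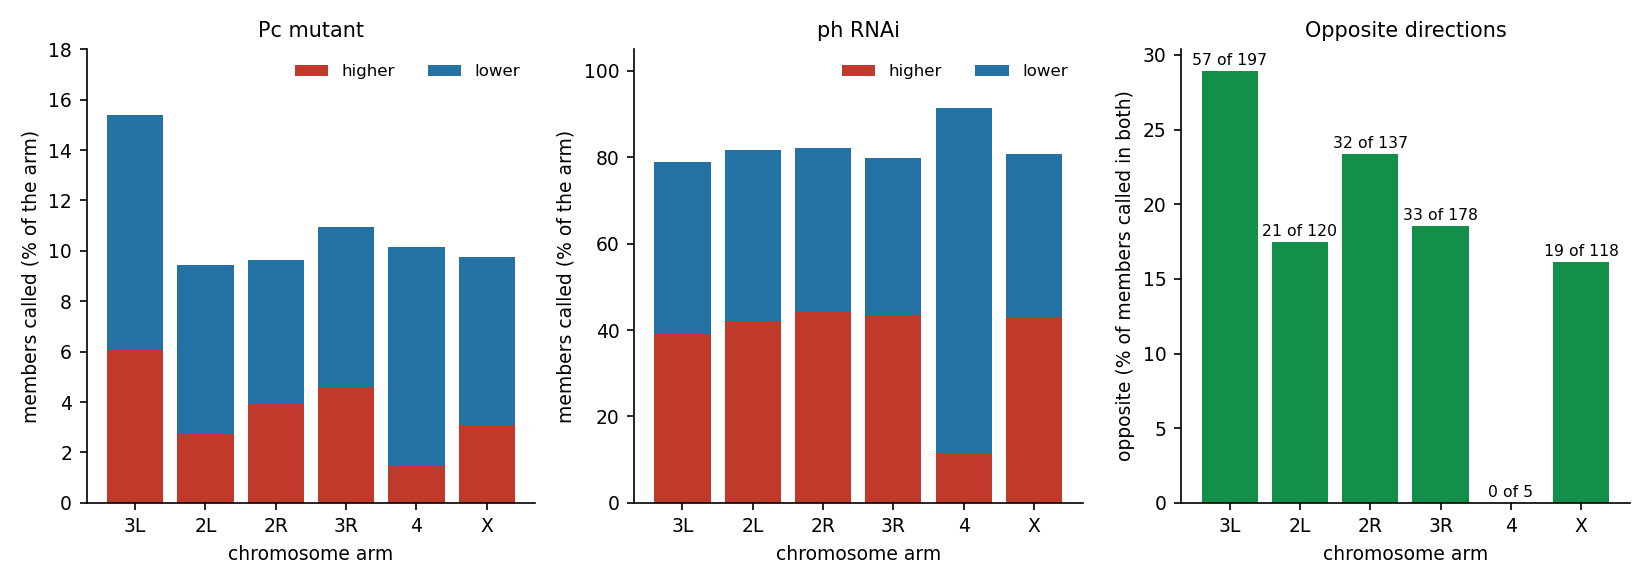
Share of tested members called higher and lower in the Pc mutant (left) and under ph RNAi (middle), and share of members called in both that were opposite (right), by chromosome arm; calls are those of the authors' deposited tables. In the Pc mutant 3L reaches 15.4%, against 9.44% to 10.9% on the other arms, and 57 of 197 members called in both on 3L are opposite.

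Binding was a readout that the classes did not use. A member counted as bound where a merged peak of PSC, the PRC1 subunit, or of Su(z)12, the PRC2 subunit, overlapped the gene or its flanks of 1000 bp. Peaks of both proteins were found for 40 of 161 shared higher members (24.8%), 74 of 432 shared lower members (17.1%), 23 of 121 higher in Pc and lower in ph (19.0%) and 8 of 41 of the reverse (19.5%), against 14.2% of all members. Among members changed under ph RNAi alone the share was 10.6% for the higher and 15.8% for the lower. Genes of the classes differed in length, which a window over the gene body reads: the median was 4774 bp for shared higher, 10546 bp for shared lower and 3249 bp for all members.

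Read the other way, of 1083 members with both peaks 72 (6.65%) were higher in the Pc mutant, against 143 of 4105 members with neither (3.48%), and 89 (8.22%) were lower, against 250 (6.09%). Of large shared rises, 20 lay among the 1083 and 10 among the 4105, counting members that rose by at least 1 in both comparisons. Under ph RNAi the members with both peaks were called lower more often than higher, 508 (46.9%) against 403 (37.2%). Those with neither were called higher more often than lower, 1831 (44.6%) against 1413 (34.4%). Over all tested members the shares were 42.2% higher and 38.5% lower. The ribosomal centring turned the calls of all members to 1299 higher and 5034 lower, and was not run for these groups, so which direction prevails in each depends on the scaling. On 3L both peaks were found at 7 of 37 shared higher members (18.9%) and 10 of 39 that were higher in Pc and lower in ph (25.6%), and on the other arms at 33 of 124 (26.6%) and 13 of 82 (15.9%). With peaks found in both replicates, the share for members higher in Pc and lower in ph was 6.61%, near the 6.23% of all members, while that of shared higher members was 18.0%.

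**Figure D5:**
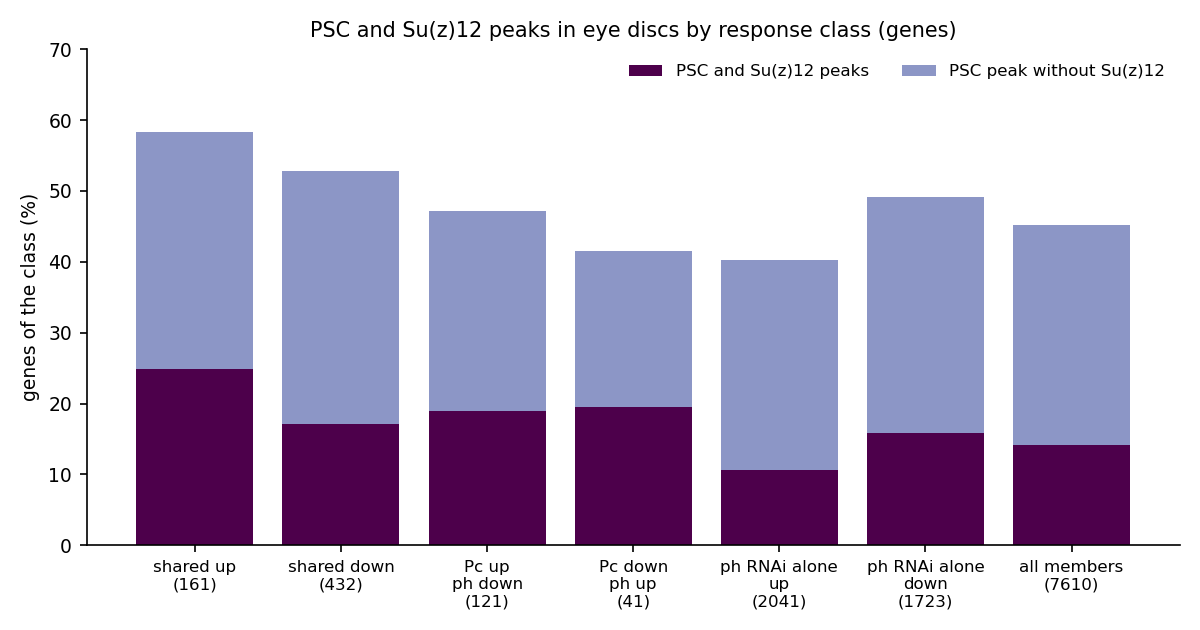
Share of genes in each response class with merged peaks of both PSC and Su(z)12 (dark) or of PSC without Su(z)12 (light) over the gene and its flanks of 1000 bp, with the number of genes under each bar. Both peaks are found at 24.8% of shared higher members, against 14.2% of all members.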

How the data were processed

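DESeq2 1.22.1, STAR, HTSeq and the build dm6 are named in the submitters' processing notes, and the fold change files carry the column names of DESeq2, per the file headers. The mean normalised count in the deposited tables averages all libraries of a comparison, a mean signal made by the authors, so depth is unknown. The authors also deposited the log2 fold change, its standard error, the Wald statistic (a score) and raw and adjusted p-values. Peak lists were called with MACS2 2.1.1.20160309, per the submitters' processing notes. The fold ratio and −log10 values the authors deposited there were not used. Merged lists, which hold all replicates per the series' text, gave 5999 PSC and 2205 Su(z)12 peaks. The sources used here do not say whether counting used strand, and overlapping genes may share reads.

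Tables were joined on the FlyBase identifier, and calls were the authors' adjusted p under 0.05. The difference, Pc minus ph, was tested per gene by a two-sided z test, with p-values adjusted by Benjamini-Hochberg over 11672 genes (scipy 1.17.1), and the script was tested on simulated data. "Alone" needs a call in 1 table, none in the other and a passed difference. Arms and positions came from a RefSeq table of Release 6, which located 7628 members, 1507 on 3L, 6120 on the other arms and the rest elsewhere. Peaks had to overlap by at least 1 bp. Members and the 44 gene lists were chosen with earlier results of these data known. Named were all PRC1 and Hox genes, w, the leading 6 of each class (3 on 3L), and in each list up to 4 genes with the smallest adjusted p of the difference and up to 3 shared genes with the largest smaller change. Alternatives were stricter calls, other count minimums, 2 centrings, correlated errors, replicated peaks and the gene body alone. List counts under the centrings were added after seeing the data.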

Additional observations from a re-analysis of the deposited data

Results flagged for a closer look

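The genes that led the opposite classes differed between the comparisons in the z test of the difference itself. The Pc log2 fold change minus the ph log2 fold change was 12.27 for CG9021, 11.39 for y, 8.12 for CG13064, 7.40 for Ccn, 5.62 for Cpr65Ec, 4.71 for Octbeta3R and 4.70 for ap. It was -3.64 for pst, -2.73 for CG43295, -1.95 for Optix, -1.92 for Cyp310a1, -1.85 for CG10337 and -1.80 for CG14964. These genes were taken for their opposite calls, so the sign of each difference follows from the choice. Of the 13, Ccn, Cpr65Ec, CG13064, pst, CG43295 and CG14964 lie on 3L. The rule also took the leading 3 of each class on 3L, so their number does not show how often opposite genes lie there.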

How the results depend on the processing

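At an adjusted p under 0.01 there were 96 shared higher and 277 shared lower members, against 162 and 432 as reported, and 10.7% of members on 3L and 6.48% on the other arms were called in the Pc mutant. With an absolute log2 fold change of at least 1 for each call there were 37 shared higher, 93 shared lower, 29 opposite, 28 Pc mutant alone and 1442 ph RNAi alone, since a smaller call then counts as none. Centring on ribosomal protein genes gave 84 shared higher and 686 shared lower members, and 17.7% called in the Pc mutant on 3L and 11.8% on the other arms. It kept 516 of the 594 shared and 112 of the 162 opposite genes in their kind of class, and opposite genes were 23.7% of those called in both on 3L and 14.1% elsewhere. Peaks of both proteins found in both replicates stood at 6.23% of all members, 18.0% of shared higher, 9.03% of shared lower and 6.61% of Pc higher with ph lower. With the gene body alone the shares were 9.24% of all members, 9.95% of shared lower and 8.26% of Pc higher with ph lower. In all other cases run, 29 of 49 alternative values, counts stayed within 1.5 times and shares within their 95% exact interval. Errors correlated at 0.5 gave 5176 members with a passed difference, against 4462. All 259 differences of named genes kept direction and side of the threshold after centring on the members' median. That centring shifted the values by only 0.02 in the Pc mutant and 0.03 under ph RNAi, so it could hardly move these differences. Under the ribosomal centring 34 of the 259 changed class: Sce and Scm, called in neither, became lower under ph RNAi alone, robo2 changed from shared higher to the Pc mutant alone, bnb from opposite to ph RNAi alone, and Lpin and spn-E from opposite to shared lower. Also among the 34, Bap170, Hsc70-4, Hsp70Bb, RpL11, RpL24-like, l(2)gl and nrv2 went from ph RNAi alone to a ph call without a passed difference. The cause of these shifts was not tested. No paired analysis was possible because the tables hold no sample, and for the same reason no replicate could be left out. The 2 mutant samples and the unknown depth limit what the Pc table can call.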
